A study of Homo sapiens with 6 samples.

Results

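The 9 genes described here encode proteins of the antioxidant programme that is best known for its control by NRF2. They are SLC7A11, GCLC, GCLM, TXNRD1, SRXN1, NQO1, ME1, HMOX1 and ABCC2. They were chosen by name from 18417 genes, with earlier results of these data known, and each was read by 1 Affymetrix probe set. NRF2 is a transcription factor of the cap'n'collar (CNC) family that pairs with a small MAF protein and binds antioxidant response elements in front of genes for glutathione synthesis, thioredoxin reduction, NADPH supply and drug export. In unstressed cells KEAP1 directs NRF2 to degradation, and BACH1 occupies many of the same elements as a repressor. NRF3, encoded by NFE2L3, is a relative of NRF2 with a similar DNA-binding domain.

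The series held 6 arrays, 1 for each of 6 groups. HCT116, a human colon cancer line, was given NRF3 siRNA or control siRNA, and its derivative HCT116-p53KO, which lacks p53 according to the labels, was given the same 2 kinds of siRNA. RNA of these 4 groups was taken 48 h after transfection, with the targets and number of siRNAs beyond these names not given in the sources used here. H1299, a lung line of human origin from a non-small cell carcinoma, carried a plasmid expressing NRF3 or a plasmid expressing GFP, and both stable lines had been selected with G-418, so that the GFP cells share the selection. The labels do not say whether a stable line was 1 clone or a pool. Each difference between 2 arrays therefore stands without a replicate check, and precision is limited by how few arrays there are.

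Levels are RMA log2 intensities, on which a step of 1 is a doubling of signal, and array intensities tend to understate large differences. NFE2L3 followed the labels on all arrays, at 6.62 on the NRF3 siRNA array and 8.97 on the control siRNA array in HCT116, and at 7.15 on the NRF3 siRNA array and 8.71 on the control siRNA array in HCT116-p53KO. In H1299 it was 10.20 with the NRF3 plasmid and 8.18 with GFP. The median intensity of all probe sets was at least 6.95 in the HCT116 and HCT116-p53KO groups and at most 6.08 in H1299, so levels were compared only within H1299 or among the HCT116-family arrays. Of 8 colon epithelium markers, 4 or 5 reached a log2 intensity of 6 on the HCT116-family arrays, CDX1, CDX2, LGALS4 and EPCAM among them on every one. VIL1, CDH17 and KRT20 stayed under 6 there. CDX1 and CDX2 also reached 6 on both H1299 arrays, and LGALS4 on the GFP array. Of 5 lung epithelium markers 0 reached 6 on either H1299 array, NKX2-1 and SFTPC included, while SCGB1A1 and NAPSA did on all 4 HCT116-family arrays and SFTPC on the NRF3 siRNA array of HCT116. All 5 mesenchymal markers reached 6 in H1299 and 4 of 5 on the HCT116-family arrays, all but CDH2. Of 5 markers of blood and vessel cells, CD68 reached 6 on all 6 arrays and PTPRC, CD3E, PECAM1 and CDH5 on none. Of all genes, 72.6% to 75.2% reached 6 on the HCT116-family arrays, and 58.7% and 59.8% on the H1299 arrays. Reaching 6 was thus common, and marker counts cannot be set against each other between HCT116-family and H1299 arrays.

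The core of the antioxidant response element is usually written TGACNNNGC, and these letters were looked for on both strands of the RefSeq promoter windows (GRCh38.p14), which run from 250 bases before a gene's start to 50 bases after it. The windows covered 7 of the 9 genes, all but SLC7A11 and HMOX1, with 2 windows for TXNRD1. The letters occurred in windows of GCLM, TXNRD1 and ME1, and in 13.3% of all 35116 windows. GCLC, SRXN1, NQO1 and ABCC2 had no match in this window. The stretches around all matches that lie wholly before the gene starts are shown. Capitals mark the match, and all stretches are written 5′ to 3′ on the gene's own strand.
GCLM, chr1:93909435-93909485, minus strand: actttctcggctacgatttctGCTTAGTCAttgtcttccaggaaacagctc
TXNRD1, upstream start, chr12:104215659-104215709, plus strand: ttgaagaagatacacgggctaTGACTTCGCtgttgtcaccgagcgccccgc
TXNRD1, downstream start, chr12:104286909-104286959, plus strand: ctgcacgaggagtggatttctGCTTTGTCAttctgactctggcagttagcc
ME1, chr6:83431159-83431209, minus strand: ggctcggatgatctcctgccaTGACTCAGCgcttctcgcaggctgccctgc
In GCLM and at the downstream TXNRD1 start the match lies on the opposite strand, where it reads TGACTAAGC and TGACAAAGC. The match in ME1, with its first base at position -137 from the start, is TGACTCAGC, which also holds the letters bound by AP-1 and occurred in 0.561% of all windows. A further match touches the upstream TXNRD1 start and another lies past the ME1 start. A match is a description of the letters and does not show that a factor binds there.

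The 9 genes did not move as a block. After NRF3 siRNA in HCT116, 4 of 9 were higher, where 51.6% of the 14034 genes compared were, and 5 were lower. None of the 9 differed by 2-fold or more, against 1.25% of all genes. In HCT116-p53KO 3 of 9 were higher (50.5% of 13680 genes) and 6 lower, again with 0 of 9 at 2-fold, against 0.709% of genes. In H1299 with the NRF3 plasmid, 5 of the 8 genes that reached a log2 intensity of 6 were higher, against 49.4% of 11304 genes. SLC7A11 and TXNRD1, 2 of the 8, were at least 2-fold higher, as were 0.681% of genes, with 1.82% past 2-fold either way. The median difference of the members was -0.04 in HCT116 against 0.01 for all genes, -0.21 in HCT116-p53KO against 0.00, and 0.37 in H1299 against 0.00. At 1.5-fold the counts were 1 of 9 (background 8.74%), 3 of 9 (background 6.0%) and 3 of 8 (background 9.02%). Shares of all genes are given for scale only, since the members were chosen with earlier results of these data known.

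**Figure D1:**
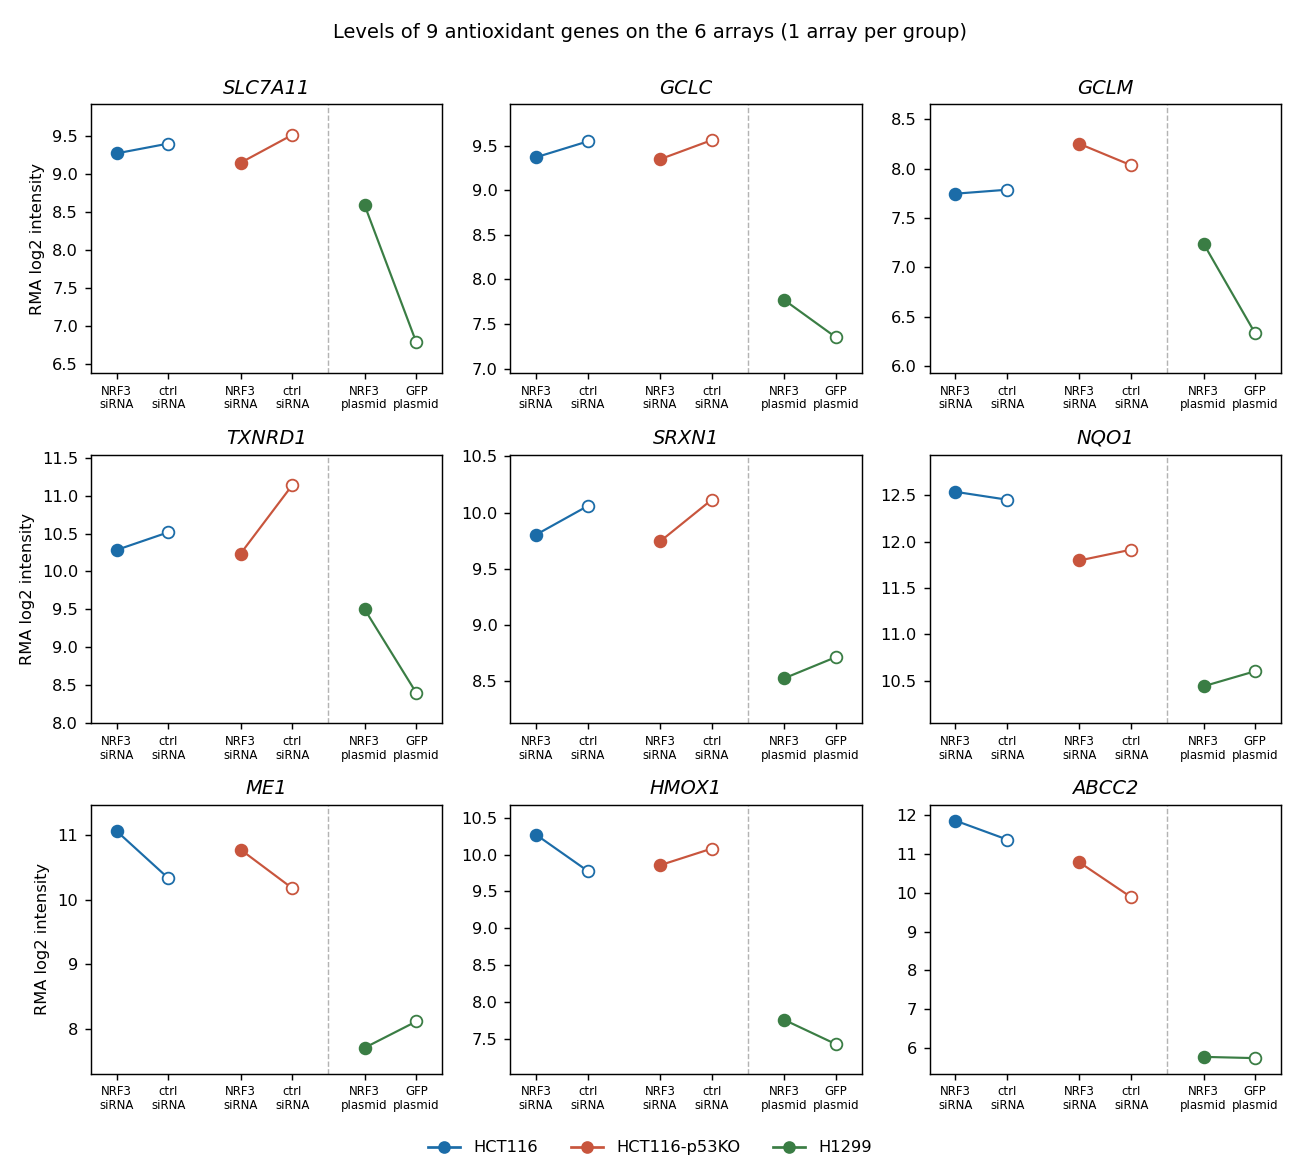
RMA log2 intensity of each of the 9 genes on the 6 arrays, 1 array per point, with filled points for NRF3 siRNA or NRF3 plasmid and open points for control siRNA or GFP. Each panel has its own y axis, and points left and right of the dashed line lie on scales that were not compared. Slopes cannot be set against each other between panels; SLC7A11 and TXNRD1 are higher with the NRF3 plasmid, and ME1 and ABCC2 are higher on both NRF3 siRNA arrays.

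SLC7A11, GCLC and GCLM act in glutathione synthesis. SLC7A11, the cystine importer of the xCT antiporter, had a level of 8.59 with the NRF3 plasmid and 6.79 with GFP in H1299, which is 3.49-fold higher and rank 13 from the highest of 11304 genes. In HCT116 it was 9.27 with NRF3 siRNA and 9.40 with control siRNA, and in HCT116-p53KO 9.15 with NRF3 siRNA and 9.52 with control siRNA. Its arrays thus differed by 1.80 in H1299 and by -0.13 and -0.37 after siRNA, lower each time. The HCT116 difference was only -0.05 after quantile normalization over 6 arrays and -0.06 after loess correction. SLC3A2, which encodes the heavy chain that carries SLC7A11 to the membrane, was at 10.23 with the NRF3 plasmid and 9.27 with GFP, a difference of 0.96, and it differed by -0.03 and 0.01 after siRNA in HCT116 and HCT116-p53KO. SLC7A11 is also a target of the amino acid stress factor ATF4, whose transcript differed by 0.52 in H1299 but also by 0.74 and 0.71 after NRF3 siRNA, where SLC7A11 was lower. Other ATF4 targets in H1299 were DDIT4 at 2.01, with an array under 6, CHAC1 at 1.42 and ASNS at 1.24. After siRNA ASNS differed by 0.81 and 0.44, CHAC1 by 0.25 and -0.80, and DDIT4 by 0.05 and -0.65, in HCT116 and HCT116-p53KO. Over the 4 HCT116-family arrays ATF4 rose by 0.72 and ASNS by 0.63 (adjusted p = 0.000328 and 0.00257 by limma), calls that end with the prior of the 6-array fit. The part of ATF4 in the SLC7A11 differences was not tested.

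GCLC, the catalytic subunit of glutamate-cysteine ligase, and GCLM, its modifier subunit, join glutamate to cysteine in the step that limits glutathione synthesis. GCLC was at 7.77 with the NRF3 plasmid and 7.35 with GFP in H1299, a difference of 0.42. It was lower on both NRF3 siRNA arrays, at 9.37 with NRF3 siRNA and 9.55 with control siRNA in HCT116, and at 9.35 with NRF3 siRNA and 9.56 with control siRNA in HCT116-p53KO. The differences were -0.18 and -0.21, and the first was -0.10 after quantile normalization over 6 arrays and -0.11 after loess correction. GCLM reached 7.24 with the NRF3 plasmid and 6.33 with GFP, which is 1.88-fold higher and rank 115 from the highest. After siRNA its direction was not shared: its level was 7.75 with NRF3 siRNA and 7.79 with control siRNA in HCT116, and 8.25 with NRF3 siRNA and 8.03 with control siRNA in HCT116-p53KO. The 2 subunits of 1 enzyme therefore lay on the same side of GFP in H1299 and on opposite sides of control siRNA in HCT116-p53KO. GSS, which adds glycine to finish glutathione, differed by -0.28 in H1299 and by 0.29 and 0.30 in the siRNA pairs.

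Thioredoxin reductase and sulfiredoxin repair oxidised proteins. TXNRD1, the cytosolic selenoenzyme that reduces thioredoxin with NADPH, was at 9.50 with the NRF3 plasmid and 8.40 with GFP in H1299, or 2.15-fold higher, rank 57 from the highest. In HCT116-p53KO it was at 10.24 with NRF3 siRNA and 11.14 with control siRNA, a difference of -0.90 and rank 88 from the lowest of 13680 genes. In HCT116 it was at 10.28 with NRF3 siRNA and 10.52 with control siRNA, a difference of -0.23 that 44.9% of genes matched or passed in size. RefSeq places 3 other annotated genes across TXNRD1. EID3, one of these, has a probe set of its own, which differed by -0.46 and -0.93 after siRNA in HCT116 and HCT116-p53KO and by 0.63 with the plasmid, the same signs as TXNRD1, and its part in the TXNRD1 signal was not tested. Among the 4 HCT116-family arrays the control siRNA array of HCT116-p53KO stood above the other 3, and the NRF3 siRNA arrays of both lines lay within 0.05 of each other. TXN, the thioredoxin it reduces, was lower on both NRF3 siRNA arrays as well, by -0.53 in HCT116 and -0.66 in HCT116-p53KO, and differed by 0.07 in H1299.

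SRXN1 encodes sulfiredoxin, which restores overoxidised peroxiredoxins. It was at 9.80 with NRF3 siRNA and 10.06 with control siRNA in HCT116, and at 9.74 with NRF3 siRNA and 10.11 with control siRNA in HCT116-p53KO. In H1299 its level was 8.52 with the NRF3 plasmid and 8.71 with GFP. SRXN1 was thus lower in all 3 pairs, by -0.26, -0.37 and -0.19. In those pairs 40.7%, 17.6% and 51.0% of all genes differed by as much or more.

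NQO1, ME1 and HMOX1 handle quinones, NADPH and heme. NQO1, a quinone reductase often used as a readout of NRF2, had levels of 12.54 with NRF3 siRNA and 12.45 with control siRNA in HCT116. In HCT116-p53KO it was at 11.80 with NRF3 siRNA and 11.92 with control siRNA, and in H1299 at 10.44 with the NRF3 plasmid and 10.60 with GFP. The differences were 0.09, -0.12 and -0.16, and 77.4%, 64.0% and 56.9% of all genes differed by as much or more in those pairs.

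ME1, the cytosolic malic enzyme that makes NADPH, went the other way from TXNRD1 in every pair. It was at 11.06 with NRF3 siRNA and 10.33 with control siRNA in HCT116, which is 1.66-fold higher and rank 172 from the highest of 14034 genes. In HCT116-p53KO it was at 10.77 with NRF3 siRNA and 10.17 with control siRNA, 1.51-fold higher, so both NRF3 siRNA arrays lay above both control siRNA arrays. In H1299 it was at 7.71 with the NRF3 plasmid and 8.12 with GFP, a difference of -0.41. HMOX1, heme oxygenase, which opens the heme ring and is repressed by BACH1, was at 10.27 with NRF3 siRNA and 9.78 with control siRNA in HCT116. In HCT116-p53KO the order was turned, at 9.85 with NRF3 siRNA and 10.08 with control siRNA. In H1299 HMOX1 was at 7.76 with the NRF3 plasmid and 7.43 with GFP.

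ABCC2, the export pump MRP2 for glutathione conjugates, was at 11.86 with NRF3 siRNA and 11.37 with control siRNA in HCT116. In HCT116-p53KO it was at 10.78 with NRF3 siRNA and 9.89 with control siRNA, a difference of 0.90 and rank 80 from the highest. Both NRF3 siRNA arrays lay above the control siRNA array of their line, but the HCT116-p53KO arrays lay below both HCT116 arrays. In H1299 ABCC2 was under 6 on both arrays, at 5.77 with the NRF3 plasmid and 5.74 with GFP, and was left out of that comparison.

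**Figure D2:**
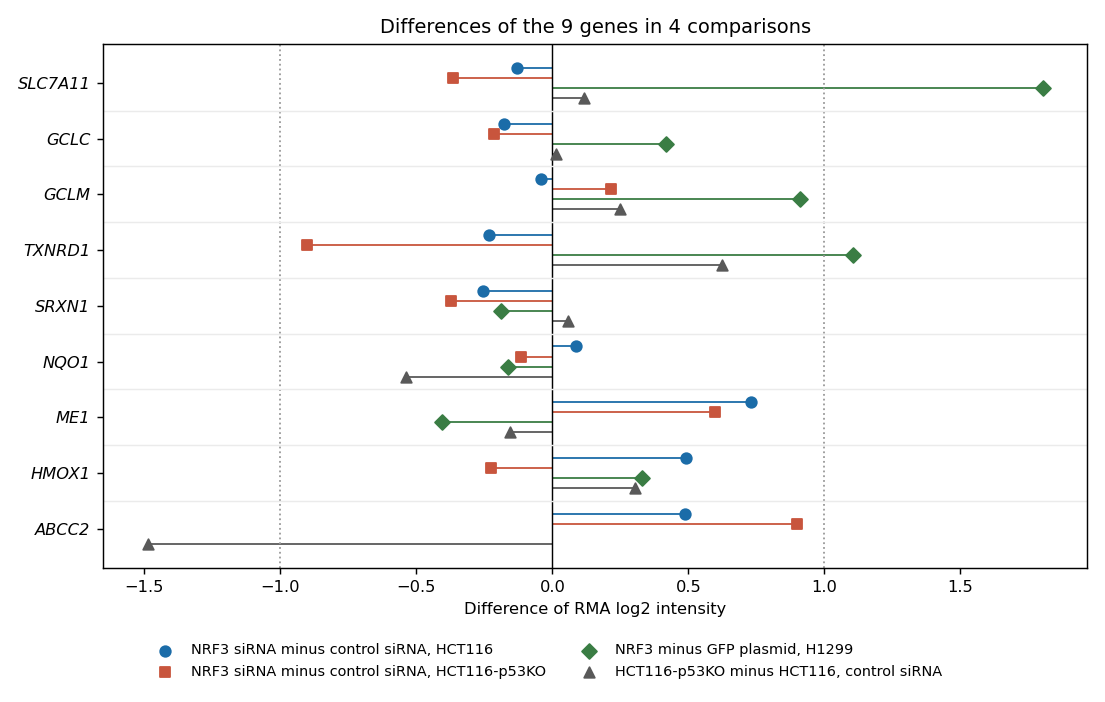
Differences of RMA log2 intensity for the 9 genes in 4 comparisons, 1 array against 1 array each, with dotted lines at 2-fold. SLC7A11 at 1.80 and TXNRD1 at 1.10 in H1299 and ABCC2 at -1.49 between the control siRNA arrays lie past the dotted lines.

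The siRNA pairs and the H1299 pair were then set side by side, since they share no arrays. Of the 8 genes measured in all 3 pairs, SLC7A11, GCLC and TXNRD1 were lower after NRF3 siRNA in both HCT116 lines and higher with the NRF3 plasmid. This was 3 of 8, or 37.5%, against 16.9% of 10856 genes measured in all 3. ME1 alone of the 8 had the opposite pattern, against 16.8% of genes. GCLM, HMOX1, NQO1 and SRXN1 showed neither. These counts describe 3 pairs of arrays and include the SLC7A11 difference of -0.13, which shrank to -0.05 after quantile normalization over 6 arrays. The genes were chosen with earlier results of these data known, so the counts do not test them as a set.

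**Figure D3:**
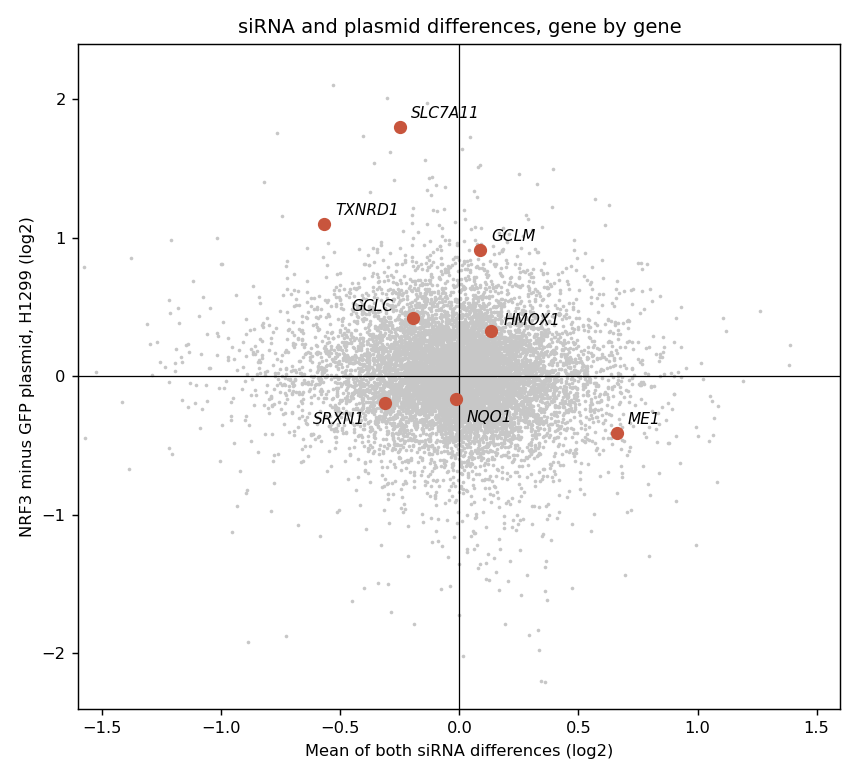
Mean of both siRNA differences (x axis, log2) against the NRF3 minus GFP plasmid difference in H1299 (y axis, log2) for 10856 genes in grey and 8 of the 9 genes in red, without 11 genes outside the axes. TXNRD1 and SLC7A11 lie in the upper left, ME1 in the lower right and NQO1 near the centre.

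A test was possible only across lines, where each line serves as a replicate of the effect. HCT116-p53KO derives from HCT116, so it is not an independent replicate of that line. Over the 4 HCT116-family arrays, limma with the line as a block called 3 of the 9 genes at an adjusted p of 0.05 over 14148 genes, against 9.88% of all genes (4.45% that rose and 5.43% that fell). ME1 rose with NRF3 siRNA by 0.66 ± 0.16 (SE, adjusted p = 0.00126 by limma) and ABCC2 by 0.69 ± 0.16 (adjusted p = 0.000654 by limma), while TXNRD1 fell by 0.57 ± 0.16 (adjusted p = 0.00813 by limma). Each of these went the same way in both lines. SRXN1 at -0.31 and SLC7A11 at -0.25 did not pass, with adjusted p = 0.254 and 0.432 by limma. The 4 arrays leave 1 residual degree of freedom, and limma gave every gene the same spread, so the SE says nothing about a single gene. With the prior of the 6-array fit 0 of the 14148 genes passed (1822 at an unadjusted p of 0.05), and the adjusted p was 0.163 for ME1, 0.175 for ABCC2 and 0.301 for TXNRD1; TXNRD1 also lost its call, at 0.114, when quantile normalization was repeated over 6 arrays.

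The same fit over all 6 arrays, as more NRF3 (control siRNA or NRF3 plasmid) minus less, called 0 of the 9 genes. This fit treats siRNA and the stable plasmid as 1 effect with the sign turned. It called 1 of 14492 genes, NFE2L3 itself, which is 0.0069% (1615 at an unadjusted p of 0.05). TXNRD1 had an estimate of 0.75 ± 0.18 (SE) and ME1 of -0.58 ± 0.13, each in the same direction in 3 of 3 lines, with adjusted p = 0.299 and 0.272 by limma. SLC7A11 had 0.77 ± 0.29, with adjusted p = 0.401 by limma, and the estimate was 0.25 without H1299. NQO1 and HMOX1 lay closest to 0, at -0.04 ± 0.13 and 0.02 ± 0.18. ABCC2, at -0.45 ± 0.18, entered this fit although both its H1299 arrays were under 6 and that pair was left out above.

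**Figure D4:**
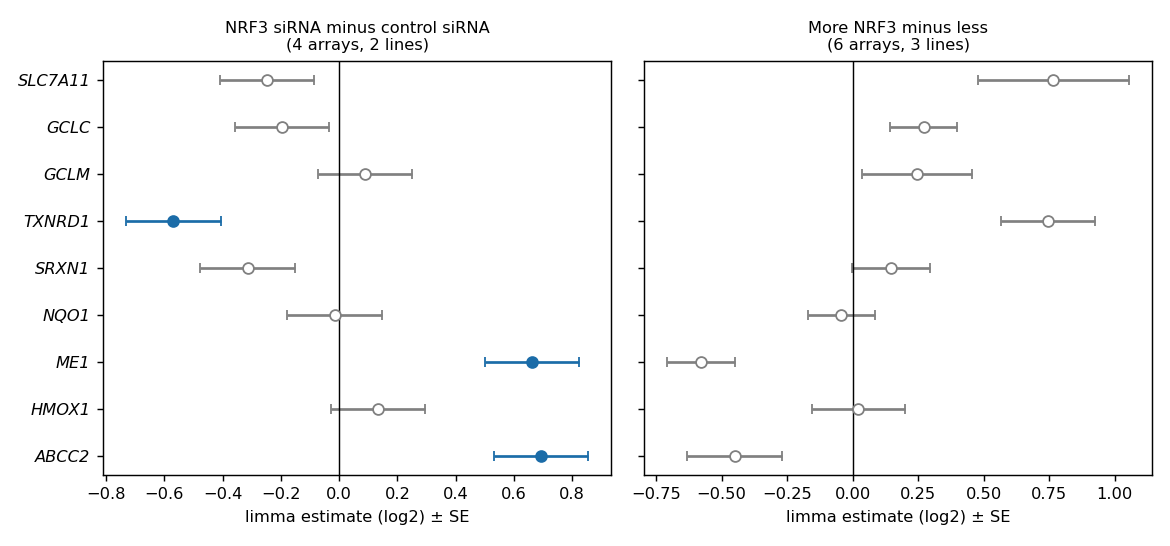
limma estimates (log2) with SE for the 9 genes, over the 4 HCT116-family arrays as NRF3 siRNA minus control siRNA and over all 6 arrays as more NRF3 minus less, with filled blue points for an adjusted p of 0.05 or less. ME1, ABCC2 and TXNRD1 pass in the first fit and none of the 9 in the second.

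The control siRNA arrays show how these genes stood in the HCT116 lines with NRF3 in place, with arrays that also enter the siRNA differences. ABCC2 was the 1 of 9 genes past 2-fold, against 1.5% of 13827 genes (1.3% lower), at 9.89 in HCT116-p53KO and 11.37 in HCT116, or 2.80-fold lower and rank 80 from the lowest. TXNRD1 was 1.54-fold higher in HCT116-p53KO, rank 99 from the highest, and at 1.5-fold the count was 2 of 9 against 4.32% of genes. NQO1 differed by -0.54 and HMOX1 by 0.30, and the other 5 genes by -0.16 to 0.25. On the NRF3 siRNA arrays the gap between HCT116-p53KO and HCT116 was -1.08 for ABCC2, -0.74 for NQO1 and -0.05 for TXNRD1. With 1 array of each, a difference between the lines cannot be told apart from a difference between these cultures.

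The transcripts of the pathway's own regulators were measured beside the 9 genes. NFE2L2, which encodes NRF2, fell with NRF3 siRNA by 0.57 ± 0.16 (adjusted p = 0.00799 by limma over 4 arrays), and NFE2L1, which encodes NRF1, rose by 0.67 ± 0.16 (adjusted p = 0.00105 by limma). Both calls end with the prior of the 6-array fit, under which no gene passed. In H1299 NFE2L2 differed by 0.20 and NFE2L1 by -0.20. KEAP1 differed by -0.06, 0.11 and -0.14 in HCT116, HCT116-p53KO and H1299, and BACH1 by -0.18, -0.11 and -0.48. Of the small MAF partners, MAFF differed by 0.11, 0.05 and 0.26. MAFG was lower with NRF3 siRNA, at -0.40 and -0.35, and also with the NRF3 plasmid, at -0.24. Transcript levels say nothing of NRF2 protein, which KEAP1 controls.

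Lists of related genes, 7 with 112 genes of which 102 were analysed here, set the 9 genes in their pathway. At 2-fold ABCC3 and NFE2L3 (the manipulated gene itself) were the list genes that passed in any NRF3 pair. Of all genes 1.25%, 0.709% and 1.82% passed in the HCT116, HCT116-p53KO and H1299 pairs. After loess correction IDH1 passed 2-fold as well. Over the 4 HCT116-family arrays limma called 14 of 92 list genes, 6 that rose and 8 that fell, NFE2L3 as the siRNA target among the 8, against 9.88% of all genes, and with the prior of the 6-array fit none of them passed. In the thioredoxin list 3 of 15 fell: TXN by 0.59, NXN, a nucleoredoxin, by 0.63, and MSRB1, a methionine sulfoxide reductase, by 0.79. PRDX4, the peroxiredoxin of the endoplasmic reticulum, rose by 0.67 and MSRB3 by 0.59. In the glutathione cycle 2 of 23 fell and none rose: GSR, the reductase that returns glutathione to its reduced form, by 0.62 and GLRX, glutaredoxin, by 0.64.

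Among 12 genes of NADPH supply IDH1, the cytosolic isocitrate dehydrogenase, fell by 0.95 and MTHFD1, a folate enzyme, rose by 0.50. IDH1 was at 10.02 with NRF3 siRNA and 10.94 with control siRNA in HCT116, and at 9.74 with NRF3 siRNA and 10.71 with control siRNA in HCT116-p53KO. In H1299 it was also lower, at 9.12 with the NRF3 plasmid and 9.61 with GFP. Of 16 other NRF2 targets 2 rose with NRF3 siRNA, AKR1C1, an aldo-keto reductase, by 0.46 and ABCC3, the export pump MRP3, by 0.55. Of all genes, limma called 4.45% as risen and 5.43% as fallen over the 4 HCT116-family arrays. ABCC3 was at 9.51 with NRF3 siRNA and 8.51 with control siRNA in HCT116, at 8.01 with NRF3 siRNA and 7.91 with control siRNA in HCT116-p53KO, and at 6.18 with the NRF3 plasmid and 7.30 with GFP in H1299. The calls of AKR1C1 and MTHFD1 had adjusted p = 0.0495 and 0.0255 by limma.

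**Figure D5:**
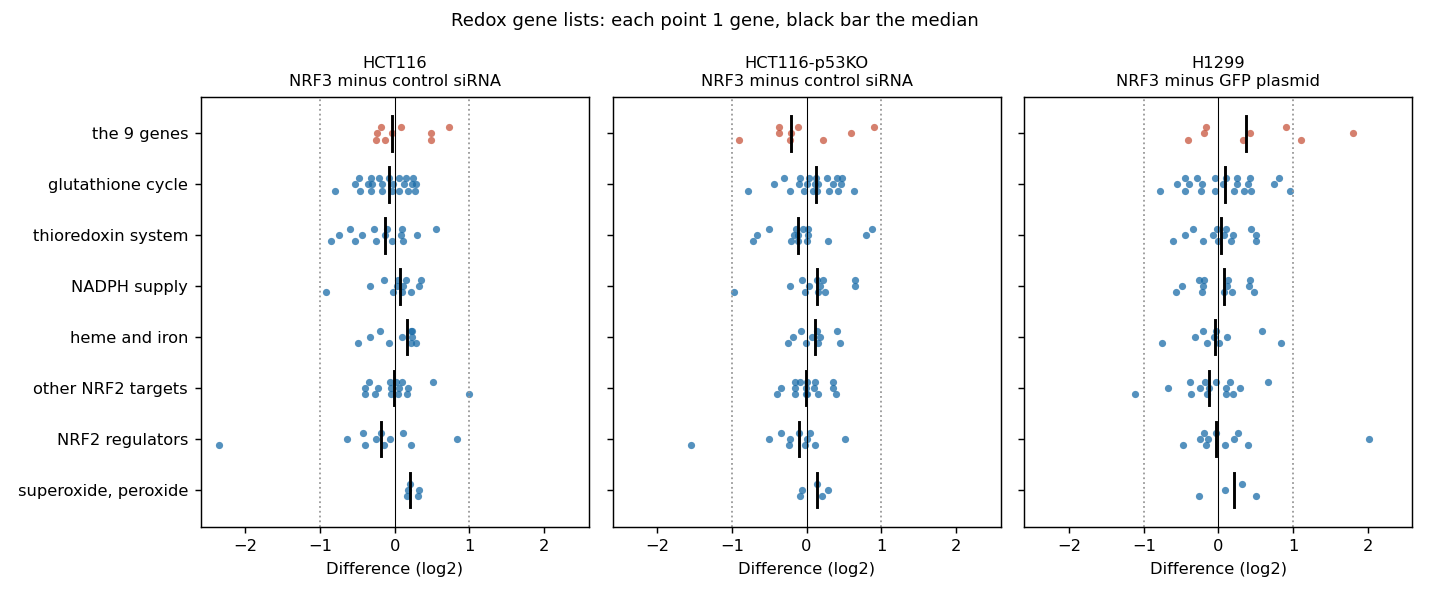
Differences (log2) of the 9 genes in red and of 7 lists of redox genes in blue in the 3 NRF3 pairs, 1 point per gene that reached 6 on an array of the pair, with black bars at the medians and dotted lines at 2-fold. The regulator point furthest left in each siRNA panel and furthest right in the H1299 panel is NFE2L3, and SLC7A11 at 1.80 is the red point furthest right in H1299.

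The genes closest to TXNRD1 over the 4 differences (both siRNA pairs, H1299 and the control siRNA arrays) were found by Euclidean distance among 14491 genes at 6 or more on at least 1 array. They were ARHGAP29 at 0.40, BNIP3, a mitophagy receptor, at 0.42, and KDM7A, a histone demethylase, at 0.50. BNIP3 differed by -0.56, -0.72, 0.93 and 0.68 in that order, and ARHGAP29 was under 6 on both H1299 arrays. The control siRNA arrays also enter the siRNA differences, so the 4 differences are not separate measurements. For SLC7A11 the closest were LAMB3, a laminin chain, at 0.26, CCN2, connective tissue growth factor, at 0.27, and PTX3, a pentraxin, at 0.40. PTX3 was under 6 on all 4 HCT116-family arrays. LAMB3 was at 9.02 with the NRF3 plasmid and 7.05 with GFP in H1299, and CCN2 at 10.35 with the NRF3 plasmid and 8.73 with GFP.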

How the data were processed

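The authors deposited log2 intensities of 33297 probe sets on 6 arrays, which the submitters' processing notes credit to RMA and Affymetrix Expression Console. No source used here gives their versions or which arrays shared a normalization. Per the labels' protocols 100 ng of total RNA was labelled. RMA background correction and quantile normalization compress low and extreme values. Of the probe sets, 19460 had 1 gene symbol in the array's annotation, 1754 had several and 12083 were unlisted. The probe set with the highest mean stood for each gene. A pair of arrays was compared over genes that reached 6 on either array, and called means 2-fold. The line was a block in limma 3.58.1 (R 4.3.3), run on all genes that reached 6 on an array. Tests were two-sided, with Benjamini-Hochberg adjustment at 0.05. The fit was also tried on simulated data with equal noise for every gene, which cannot show how it does where genes differ in spread. p-values set the mean difference against a spread between lines. Over the 4 HCT116-family arrays this was 1 spread shared by all genes, so no gene was tested against its own. The members and lists were chosen with earlier results of these data known. Named list genes were the up to 4 with the largest difference per list, plus partners of the members. Some planned genes are not analysed here. Alternatives were another probe set rule, filters, fold thresholds, normalizations, priors and leaving out lines.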

Additional observations from a re-analysis of the deposited data

Results flagged for a closer look

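Members whose siRNA difference had opposite signs in the HCT116 lines were singled out, with 1 array per group and no test of the difference between lines. HMOX1 differed by 0.49 in HCT116 and by -0.23 in HCT116-p53KO. GCLM differed by -0.0403 in HCT116 and by 0.22 in HCT116-p53KO, and NQO1 by 0.085 in HCT116 and by -0.12 in HCT116-p53KO. Opposite signs were found for 3 of the 9 genes. The same sign was found for 6 of the 9, or 66.7%, and for 61.8% of all genes measured in both pairs. Opposite signs were therefore no more common among the members than among all genes.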

How the results depend on the processing

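Each member has 1 probe set, so among the alternatives for single pairs only quantile normalization over 6 arrays and loess correction could move a member's difference. Under these 2, all 35 kept their sign except GCLC between the control siRNA arrays, at 0.01 as reported and -0.0027 after loess correction. At 1.5-fold the number of members past the threshold was 1 after siRNA in HCT116, 3 in HCT116-p53KO and 2 between the control siRNA arrays. Of the list genes, 24 passed in any NRF3 pair, in place of 2. In single pairs 8.74%, 6.0% and 9.02% of all genes passed in HCT116, HCT116-p53KO and H1299. The share of all genes that passed in any pair was not counted. Over the 4 HCT116-family arrays the number of members called was 0 with the prior of the 6-array fit and 0 with the residual of each gene alone, and the number of all genes called was 1398 as reported, 856 after quantile normalization over 6 arrays, 0 with that prior and 3 with that residual. In the 6-array fit, leaving out 1 line gave 0 to 3 members called, with the 3 calls reached only without H1299, and 0 to 1398 genes in all. HMOX1 there was -0.00346 after quantile normalization over 6 arrays and -0.13 to 0.28 with 1 line left out; GCLM ranged from -0.0884 to 0.476 and NQO1 from -0.124 to 0.0157. All genes at 2-fold higher in HCT116 numbered 31, or 47 after quantile normalization over 6 arrays, and those 2-fold lower in H1299 numbered 129, or 81 with a filter at 7. The cause of these changes was not tested. No paired analysis was possible because each group had 1 array, beyond the block on cell line. Detection calls were not used, so levels under 6 have uncertain sizes.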

Other observations

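Of 10 heme and iron genes beside HMOX1, 0 were called after NRF3 siRNA by limma over the 4 HCT116-family arrays, where 9.88% of all genes were, with median differences of 0.16 in HCT116 and 0.11 in HCT116-p53KO. In H1299 TFRC, the transferrin receptor, was at 9.41 with the NRF3 plasmid and 8.58 with GFP, while BLVRB, a biliverdin reductase, was at 8.23 with the NRF3 plasmid and 8.98 with GFP. ALAS1, the first enzyme of heme synthesis, was at 9.52 with the NRF3 plasmid and 8.93 with GFP. Of 5 superoxide and peroxide genes, 5 were higher on the NRF3 siRNA array in HCT116, by 0.16 to 0.32, where 51.6% of all genes were higher by any size. In HCT116-p53KO 3 were higher and 2 lower, SOD3 at -0.09 and CAT at -0.06, and in H1299 3 of the 4 that reached 6 were higher and CCS was lower at -0.26. By limma 0 of 5 were called over the 4 HCT116-family arrays, against the same 9.88%. SOD2, the mitochondrial superoxide dismutase, was higher with NRF3 siRNA, by 0.32 in HCT116 and 0.29 in HCT116-p53KO. It was also higher with the NRF3 plasmid in H1299, by 0.50, so siRNA and plasmid did not move it in opposite directions.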
